A study of Homo sapiens with 22 samples.

Results

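The TCF/LEF family of transcription factors was followed through all groups of an RNA-seq experiment in which β-catenin was made to accumulate or was depleted. The family comprises LEF1, TCF7, TCF7L1 and TCF7L2. These 4 genes were chosen by name, with their Ensembl identifiers matched to symbols, from the 37908 genes of the count table, and all 4 passed the filter on low counts in every comparison. The cells were H1299, which derive from a human non-small cell lung carcinoma, and all cultures held an shRNA to BRCA2 that doxycycline (DOX) switches on. BRCA2-deficient cells had 3 days of DOX at 2 µg/mL, BRCA2-proficient cells had none, and since no culture lacking the shRNA received DOX, the agent and the loss of BRCA2 cannot be told apart. Each background received control siRNA (AllStars) or siRNA against β-catenin (siβ-catenin, directed at CTNNB1), each with or without 250 nM LY2090314, a GSK3 inhibitor (GSK3i), for 24 h. The 8 groups held 22 libraries. There were 3 per group, except that BRCA2-proficient cells without GSK3i gave 2 with control siRNA (called untreated) and 2 with siβ-catenin, both numbered 2 and 3.

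TCF/LEF proteins bind DNA through a shared HMG box and recruit β-catenin through their N-terminus. Without β-catenin they hold TLE (Groucho) co-repressors at WNT target genes, and when GSK3 no longer marks β-catenin for degradation, β-catenin replaces the co-repressors and transcription rises. The members differ in role. LEF1 and TCF7 (also called TCF-1) are mostly associated with activation and are themselves WNT targets in many tissues, TCF7L1 (TCF-3) acts mostly as a repressor, and TCF7L2 (TCF-4) does both and is the main member in intestinal epithelium. LEF1 and TCF7 are best known from T lymphocytes.

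On GRCh37, LEF1 (ENSG00000138795) lies on the minus strand of chromosome 4 from 108968701 to 109090112. TCF7 (ENSG00000081059) lies on the plus strand of chromosome 5 from 133450372 to 133487556, TCF7L1 (ENSG00000152284) on the plus strand of chromosome 2 from 85360515 to 85537510, and TCF7L2 (ENSG00000148737) on the plus strand of chromosome 10 from 114710006 to 114927437. Antisense genes overlap 5.2% of the exonic bases of LEF1 (LEF1-AS1), 2.08% of TCF7 (SKP1) and 4.45% of TCF7L2 (ENSG00000233547), whereas TCF7L1 shares no exonic base with another gene. The libraries were stranded, but the strand setting of the counting is not given in the sources used here. LEF1-AS1 had at most 8.15 normalised counts in any library, against at least 37.1 for LEF1. SKP1 was higher than TCF7, with 2954 to 5378 normalised counts against 273 to 2311. How many SKP1 reads fell on the shared bases was not examined, and no level is given here for ENSG00000233547.

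Because TCF/LEF genes are described as targets of their own pathway, the 250 bases upstream of each annotated start were searched for the TCF/LEF core motif, written as the letters CTTTG followed by a pair of bases each of which is A or T (4 motifs), on either strand. RefSeq gave 7 start sites for the 4 genes, and the windows (RefSeq promoters of GRCh38.p14, located in GRCh37 by sequence match) held a motif at 2 of them. Both are shown, with the motif in capitals, as they are the only upstream windows of the family in which these letters occur. The window of TCF7 at chr5:133459059-133459308 (GRCh37, plus strand) precedes an internal start 8937 bases inside the gene and carries CTTTGTT on the minus strand, 50 bases upstream of that start. The window of TCF7L2 at chr10:114886142-114886391 (GRCh37, plus strand) precedes an internal start 176386 bases inside the gene and carries CTTTGTT on the plus strand, 133 bases upstream.
TCF7, internal start: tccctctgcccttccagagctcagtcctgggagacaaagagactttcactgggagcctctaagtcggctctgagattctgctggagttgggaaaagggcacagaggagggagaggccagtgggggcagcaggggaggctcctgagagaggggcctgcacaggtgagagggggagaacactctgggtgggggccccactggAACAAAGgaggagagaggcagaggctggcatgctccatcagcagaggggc
TCF7L2, internal start: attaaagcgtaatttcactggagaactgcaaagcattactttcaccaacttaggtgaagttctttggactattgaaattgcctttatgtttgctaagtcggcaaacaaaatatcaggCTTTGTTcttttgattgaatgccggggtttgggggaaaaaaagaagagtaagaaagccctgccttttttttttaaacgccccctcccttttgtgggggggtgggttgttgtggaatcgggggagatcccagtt
One of these windows belongs to a gene that rose with GSK3i and the other to a gene that did not. The remaining windows, which include the one of LEF1 and the outermost ones of the other genes, held none of the 4 motifs. That of LEF1 precedes a start 2655 bases inside the annotated gene and lies wholly in exon. The outermost one of TCF7 precedes a start 932 bases inside its gene. For LEF1 and TCF7 the sequence beyond the outer end of the gene was therefore not searched. Of 35116 windows of the same length over all genes, 12% held at least one, so the matches are a description of the windows and not of binding.

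The median library held 23.2 M counts (range 18.9 to 29.3 M), and raw counts per library were 33 to 415 for LEF1, 297 to 1984 for TCF7, 254 to 924 for TCF7L1 and 480 to 994 for TCF7L2. Levels below are normalised counts, that is counts over the size factors that DESeq2 gave the whole set of libraries, and depth therefore limited LEF1 the most. CTNNB1 had 977 to 2217 normalised counts with siβ-catenin and 5206 to 8669 without it. AXIN2, a standard β-catenin target, had 1027 to 1747 with GSK3i and control siRNA and 59.5 to 227 elsewhere, and BRCA2 had at most 225 in BRCA2-deficient and at least 514 in BRCA2-proficient libraries. T lymphocyte markers (5 of 6 were in the table, CD3E was not used) summed to between 0 and 21.2 normalised counts per library, of which CD8A gave up to 19.6, while CD3D, CD3G, CD2 and PTPRC were each at 1.57 or less. The mesenchymal marker VIM had 12636 to 35307, while KRT8 had 2037 to 8200, KRT18 5068 to 12950 and CDH2 1923 to 2501. Of the alveolar markers, SFTPC and SFTPB were at 1.51 or less and NAPSA at 9.21 or less, whereas NKX2-1 had 19.8 to 108.

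The GSK3i labels of 3 BRCA2-proficient libraries with siβ-catenin did not match the genes that respond to the inhibitor whether or not β-catenin is depleted. PDCD4, YPEL2 and ABTB1 were singled out for this after their values were seen. In the other 11 libraries with GSK3i PDCD4 had 105 to 163 normalised counts, and in the other 8 without it 1291 to 1920. The library labelled siβ-catenin replicate 2 had 291, the library labelled siβ-catenin replicate 3 had 1056, and replicate 2 of the libraries labelled GSK3i with siβ-catenin had 1998. YPEL2 and ABTB1 placed these libraries in the same order, at 35.3, 126 and 304 for YPEL2 and at 144, 617 and 1303 for ABTB1. The first therefore lay near the libraries with GSK3i, the second between the classes, and the third among the libraries without it. TBL1X, described below, placed them otherwise, with 930 normalised counts in the first and 969 in the second, between the 435 to 686 of the other BRCA2-proficient libraries with GSK3i and the 1123 and 1139 of the untreated ones, and 1373 in the third. In BRCA2-deficient cells no library stood apart in this way. Where leaving out a doubted library changes the call of a member, the value without it is given, and group means include all libraries.

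Which members follow accumulating β-catenin was asked first, by setting GSK3i against untreated cells. In BRCA2-proficient cells all 4 members were called, LEF1 and TCF7 higher and TCF7L1 and TCF7L2 lower, and in BRCA2-deficient cells only LEF1 and TCF7 were called, both higher. Calls required an adjusted p (DESeq2, Benjamini-Hochberg over all genes tested) below 0.05 together with a log2 fold change larger than 0.5 in size. In BRCA2-proficient cells 11.8% of all genes tested were called higher and 14.2% lower, and in BRCA2-deficient cells 11.6% were called higher and 13.8% lower. Being called lower was therefore common among all genes, while the position of LEF1 and TCF7 was not. LEF1 ranked 23rd and TCF7 37th from the top among 16771 genes by log2 fold change in BRCA2-proficient cells, and 11th and 36th among 16863 in BRCA2-deficient cells.

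LEF1 was the least abundant member in untreated cells, with 65.0 and 49.5 normalised counts in the BRCA2-proficient and 39.3, 46.6 and 44.002 in the BRCA2-deficient libraries. With GSK3i it had 406, 368 and 453 in BRCA2-proficient and 353, 357 and 371 in BRCA2-deficient libraries. The lowest GSK3i library was far above the highest untreated one in both backgrounds. The fold change was 7.12 (log2 fold change 2.83 ± 0.24 SE, adjusted p = 1.49e-30) in BRCA2-proficient cells, and in BRCA2-deficient cells it was 8.31 (3.05 ± 0.22, adjusted p = 8.85e-39).

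TCF7 started higher and reached the highest count of the family. The untreated libraries had 361 and 396 normalised counts in BRCA2-proficient and 382, 322 and 386 in BRCA2-deficient cells. The GSK3i libraries had 2311, 2067 and 1793 in BRCA2-proficient and 1926, 1642 and 1569.9 in BRCA2-deficient cells. As for LEF1, the groups were well apart. The fold change was 5.37 (log2 2.43 ± 0.16, adjusted p = 5.83e-49) and 4.71 (2.24 ± 0.17, adjusted p = 2.13e-35), respectively. Leaving out any single library kept LEF1 between 2.64 and 3.11 and TCF7 between 2.15 and 2.53 on the log2 scale, with every one of these fits calling both genes.

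TCF7L1, the member most often described as a repressor, moved the other way and by much less. BRCA2-proficient cells had 399 and 483 normalised counts untreated and 329.6, 308 and 286 with GSK3i. These groups did not overlap, and the fall was 1.45-fold (log2 -0.53 ± 0.18, adjusted p = 0.014). This call depended on single libraries, as it was lost without either untreated library (-0.66, adjusted p = 0.0538, and -0.39, adjusted p = 0.338) and without GSK3i replicate 2 (-0.52, adjusted p = 0.0881) or replicate 3 (-0.47, adjusted p = 0.0566). BRCA2-deficient cells had 503, 419 and 473 untreated and 406, 409 and 391 with GSK3i. Here too the groups did not overlap, and the difference of -0.21 ± 0.17 (95% interval -0.54 to 0.11) was not called (adjusted p = 0.361). The share of all genes whose groups do not overlap was not determined. With so few libraries per group, unchanged genes can also separate. Here and below, a lack of overlap therefore describes the libraries and is not evidence of a change where a difference was not called.

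TCF7L2 had the highest counts of the family in untreated cells, with 877 and 946 normalised counts in BRCA2-proficient and 724, 869.7 and 909 in BRCA2-deficient libraries. With GSK3i it had 593, 688 and 599.9 in BRCA2-proficient and 671, 714 and 690.2 in BRCA2-deficient libraries. The BRCA2-proficient groups were separate, with a 1.47-fold fall (log2 -0.55 ± 0.15, adjusted p = 0.00181) that was lost only when untreated replicate 3 was left out (-0.50, adjusted p = 0.114). In BRCA2-deficient cells all 3 GSK3i libraries were below the lowest untreated library, and the difference of -0.27 ± 0.16 (95% interval -0.59 to 0.05) was not called (adjusted p = 0.209). In a fit of both backgrounds with BRCA2 status as a term, added after seeing the data, TCF7L1 changed by -0.35 ± 0.11 (adjusted p = 0.00271) and TCF7L2 by -0.40 ± 0.10 (adjusted p = 0.000239), both short of the size criterion of 0.5. In that fit 32.6% of all genes were called, among them LEF1 (2.95 ± 0.14) and TCF7 (2.32 ± 0.11).

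**Figure D1:**
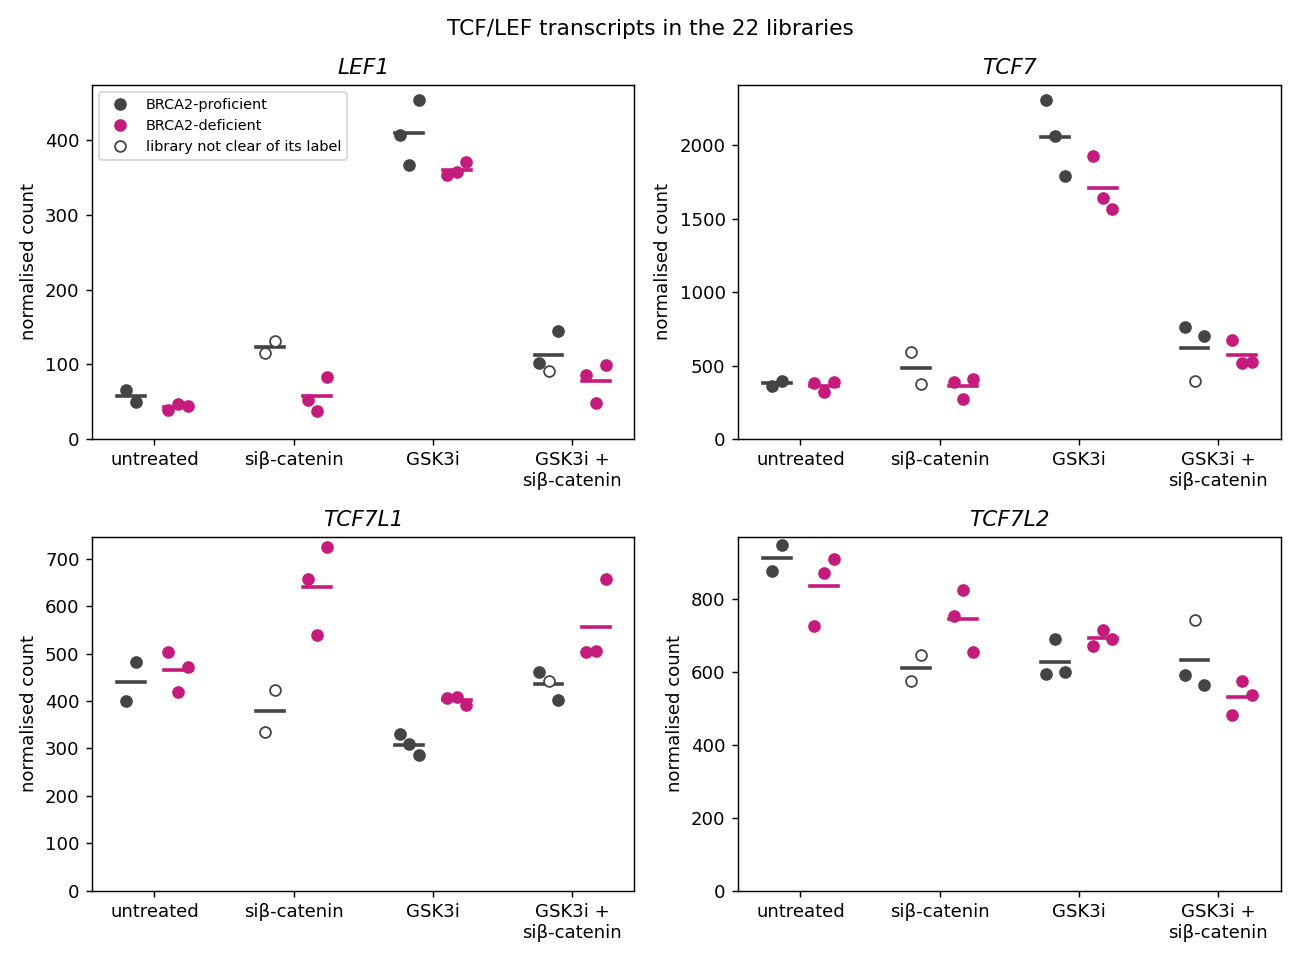
Normalised counts of LEF1, TCF7, TCF7L1 and TCF7L2 in each of the 22 libraries by group, with horizontal bars at group means and open points for the 3 BRCA2-proficient siβ-catenin libraries whose GSK3i label was in doubt. LEF1 (at least 353) and TCF7 (at least 1569.9) stand apart with GSK3i and control siRNA in both backgrounds, while TCF7L1 (286 to 725 over all libraries) and TCF7L2 (480.2 to 946) do not.

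Depletion of β-catenin under GSK3i was examined next, to ask which of these changes needed β-catenin. LEF1 and TCF7 were called lower in both backgrounds. TCF7L1 was called higher in BRCA2-proficient cells, and TCF7L2 was called in neither. Of all genes, 1.92% were called lower and 3.18% higher in BRCA2-proficient cells, and 2.57% lower and 2.95% higher in BRCA2-deficient cells. By log2 fold change LEF1 ranked 28th and TCF7 32nd from the bottom of 16393 genes in BRCA2-proficient cells, and 18th and 51st from the bottom of 17025 in BRCA2-deficient cells.

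With GSK3i and siβ-catenin, LEF1 had 102, 91.4 and 145 normalised counts in BRCA2-proficient and 86.0, 48.4 and 98.7 in BRCA2-deficient libraries. All were below the lowest library with GSK3i and control siRNA. LEF1 fell by 1.84 ± 0.23 on the log2 scale (adjusted p = 5.74e-13) and fell by 2.21 ± 0.27 (adjusted p = 1.27e-13), respectively. TCF7 had 759, 396 and 698 in BRCA2-proficient and 677, 515 and 522 in BRCA2-deficient libraries, again with no overlap, and fell by 1.71 ± 0.24 (adjusted p = 3.21e-10) and fell by 1.59 ± 0.17 (adjusted p = 2.74e-16). The lowest TCF7 value in BRCA2-proficient cells was that of replicate 2, the library labelled GSK3i with siβ-catenin which in PDCD4 resembled libraries without the inhibitor. Without it, TCF7 fell by 1.48 (adjusted p = 2.36e-20) and LEF1 by 1.71 (adjusted p = 5.93e-13).

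TCF7L1 had 462, 443 and 402 normalised counts with GSK3i and siβ-catenin in BRCA2-proficient cells, all above the 286 to 329.6 seen with GSK3i alone, and rose by 0.53 ± 0.17 on the log2 scale (adjusted p = 0.0323). The call was near both limits. It was lost with replicate number as a block (0.52, adjusted p = 0.0873), with edgeR (0.52, adjusted p = 0.134) and in 5 of the 6 fits that left out 1 library, the exception being the fit without the doubted replicate 2 library with both agents (0.51, adjusted p = 0.0448). In BRCA2-deficient cells TCF7L1 had 503, 506 and 658 against 391 to 409, also without overlap, and the difference of 0.46 ± 0.18 (95% interval 0.12 to 0.81) was not called (adjusted p = 0.0948). Fitted over both backgrounds, where 10.6% of all genes were called, TCF7L1 differed by 0.49 ± 0.10 (adjusted p = 2.05e-05), just under the size criterion.

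TCF7L2 did not go back up with siβ-catenin. It had 591, 741 and 563 normalised counts in BRCA2-proficient cells, overlapping the values with GSK3i alone, and the difference was 0.04 ± 0.18 (95% interval -0.31 to 0.38, adjusted p = 0.939). In BRCA2-deficient cells it had 480.2, 575 and 536, all below the 671 to 714 with GSK3i alone, and the difference of -0.39 ± 0.15 (95% interval -0.68 to -0.10) was not called (adjusted p = 0.0948).

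**Figure D2:**
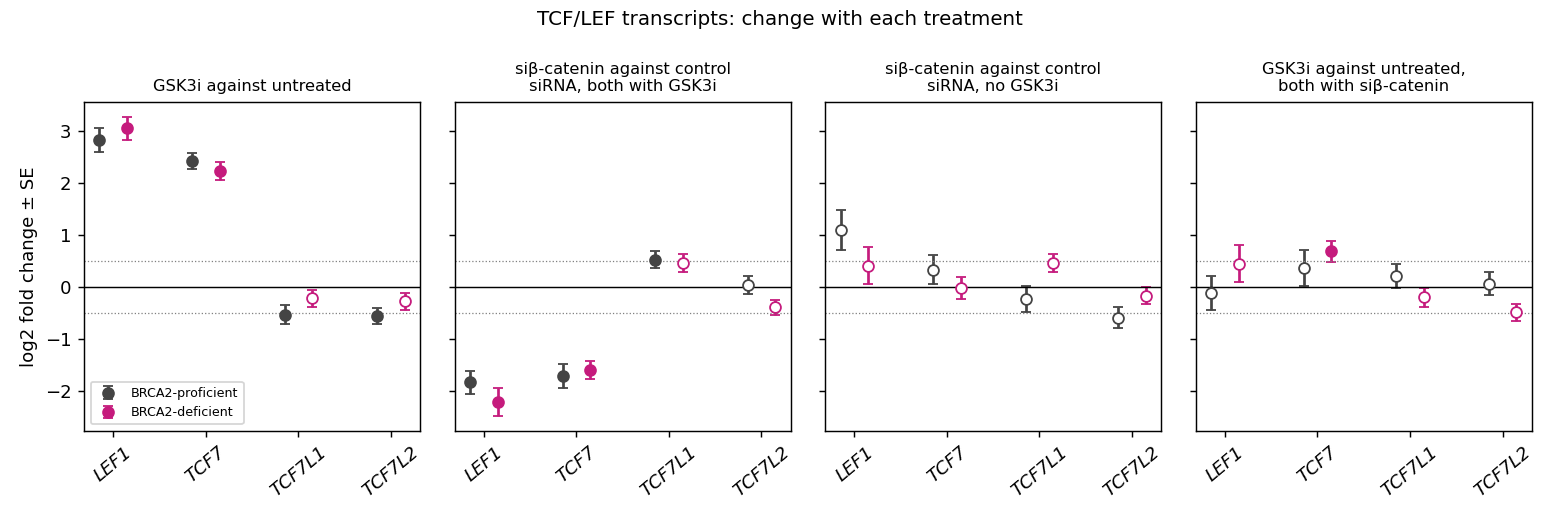
Log2 fold changes (± SE) of the 4 members for each comparison in both BRCA2 backgrounds, with filled points where a gene was called, open points where it was not, and dotted lines at ±0.5. LEF1 and TCF7 are the only members past 1 with GSK3i (2.24 to 3.05) and below -1 with siβ-catenin under GSK3i (-1.59 to -2.21).

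A different comparison, GSK3i against no GSK3i among cells with siβ-catenin, asked what was left of the response once CTNNB1 was depleted. In BRCA2-deficient cells, where 20.1% of all genes were called, TCF7 was the only member called. It had 389, 273 and 409 normalised counts with siβ-catenin alone and 677, 515 and 522 with both, so the groups were separate, and the difference was 0.69 ± 0.21 (log2, adjusted p = 0.00674), well under the change with control siRNA. Leaving out siβ-catenin replicate 2, the lowest of them, gave 0.53 (adjusted p = 0.0734). LEF1 had 52.1, 37.1 and 82.4 with siβ-catenin alone, overlapping its values with both, and differed by 0.45 ± 0.36 (adjusted p = 0.389). TCF7L2 differed by -0.48 ± 0.16 (adjusted p = 0.017), under the size criterion, and was called lower in 2 of the 6 fits that left out 1 library. TCF7L1 differed by -0.20 (adjusted p = 0.472).

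In BRCA2-proficient cells the same comparison rests on the 3 libraries whose labels were in doubt. As labelled, none of the 4 members was called by DESeq2 or edgeR, none had an unadjusted p under 0.05 in DESeq2, and only 0.0529% of all genes were called. The values were 115 and 131 normalised counts of LEF1 and 593 and 371 of TCF7 with siβ-catenin alone. Without both replicate 2 libraries, a choice made after seeing the data, TCF7 differed by 0.98 (log2) and LEF1 by -0.08. On the side of siβ-catenin alone that fit rests on replicate 3 only, whose label is itself in doubt.

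Whether siβ-catenin changed the response to GSK3i was tested as an interaction. LEF1 and TCF7 were called by DESeq2 in both backgrounds, in which 7.63% (BRCA2-proficient) and 0.486% (BRCA2-deficient) of all genes were called. The response of LEF1 to GSK3i was smaller with siβ-catenin, the interaction being -2.95 ± 0.37 (log2, adjusted p = 2.08e-11) for BRCA2-proficient cells and -2.62 ± 0.43 (adjusted p = 1.89e-06) for BRCA2-deficient cells. That of TCF7 was -2.06 ± 0.39 (adjusted p = 7.75e-05) and -1.57 ± 0.27 (adjusted p = 6.37e-06). With edgeR the BRCA2-proficient call was lost for TCF7 (-2.03, adjusted p = 0.0845) and not for LEF1 (-2.92, adjusted p = 0.0193). Without both doubted replicate 2 libraries, where doubted replicate 3 alone stood for siβ-catenin without GSK3i, the BRCA2-proficient interaction was -2.91 for LEF1 and -1.45 for TCF7. For TCF7L1 it was 0.74 ± 0.27 (adjusted p = 0.0529) for BRCA2-proficient cells and -0.00 (adjusted p = 1.0) for BRCA2-deficient cells, and for TCF7L2 0.62 ± 0.25 (adjusted p = 0.0958) and -0.22 ± 0.19. None of these 4 was called in the main fits. That of TCF7L1 in BRCA2-proficient cells was called with TMM factors and in 1 model over all groups, which also called that of TCF7L2. The TCF7L1 term was 0.93 when doubted siβ-catenin replicate 3 was left out, which left doubted replicate 2 alone in that group.

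Without GSK3i, β-catenin depletion was compared with control siRNA to ask whether the family depends on basal β-catenin. DESeq2 and edgeR called 0 of the 4 members in either background, while DESeq2 called 2.97% of all genes in BRCA2-proficient cells against 2.03% of them in BRCA2-deficient cells, and edgeR called 1 and 0 of all genes. At an unadjusted p under 0.05 DESeq2 gave 2 members (LEF1 and TCF7L2) in BRCA2-proficient cells and 1 (TCF7L1) in BRCA2-deficient cells. LEF1 was at 115 and 131 normalised counts with siβ-catenin against 65.0 and 49.5 in untreated BRCA2-proficient cells, a difference of 1.10 ± 0.39 (log2, adjusted p = 0.0848), with 1.20 (adjusted p = 0.282) when doubted replicate 2 was left out and 0.998 (adjusted p = 0.272) when doubted replicate 3 was. TCF7L2 had 574 and 645 against 877 and 946, a difference of -0.59 ± 0.20 (adjusted p = 0.0746). It was called lower by DESeq2 when doubted replicate 3 was left out (-0.67, adjusted p = 0.0237) and not without replicate 2 (-0.50, adjusted p = 0.2395). In BRCA2-deficient cells, where no label was in doubt, LEF1 differed by 0.41 ± 0.36 (adjusted p = 0.703), TCF7 by -0.02 ± 0.21 (adjusted p = 0.987), TCF7L1 by 0.47 ± 0.18 (adjusted p = 0.165) and TCF7L2 by -0.16 ± 0.17 (adjusted p = 0.774). TCF7L1 had 657, 538 and 725 with siβ-catenin in these cells, all above the 419 to 503 of untreated ones.

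BRCA2-deficient cells were compared with BRCA2-proficient cells under each treatment. In untreated cells 0 members were called by DESeq2 or edgeR (0 at an unadjusted p under 0.05), where 6.91% of all genes were called, and the differences ran from -0.42 for LEF1 to 0.05 for TCF7L1. Under GSK3i 0 were called by either tool (1 at an unadjusted p under 0.05, TCF7L1), where 6.81% of all genes were called. TCF7L1 differed by 0.38 there (adjusted p = 0.104), its libraries lying at 391 to 409 in BRCA2-deficient and 286 to 329.6 in BRCA2-proficient cells without overlap. With GSK3i and siβ-catenin 0 were called by either tool (0 at an unadjusted p under 0.05), with 7.74% of all genes called, and values ran from -0.54 for LEF1 to 0.35 for TCF7L1.

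With siβ-catenin alone, LEF1 was called lower in BRCA2-deficient cells (-1.12 ± 0.38, adjusted p = 0.0131) and TCF7L1 higher (0.74 ± 0.22, adjusted p = 0.00429), beside 27.4% of all genes called. This contrast rests on the library labelled siβ-catenin replicate 2, which resembled libraries with GSK3i, and on replicate 3, which lay between. Without replicate 2 neither was called (LEF1 -1.23, adjusted p = 0.0545, TCF7L1 0.56, adjusted p = 0.0987). Without replicate 3 TCF7L1 (0.91, adjusted p = 0.00312) and TCF7 (-0.76, adjusted p = 0.0288) were called and LEF1 was not (-1.03, adjusted p = 0.108). Among the BRCA2-deficient libraries, leaving out replicate 1 ended both calls and leaving out replicate 2 ended that of LEF1.

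The difference between backgrounds in the response itself was tested as an interaction. For GSK3i DESeq2 and edgeR called 0 of the members (0 at an unadjusted p under 0.05), where 0.0345% of all genes were called, and the 95% intervals were -0.36 to 0.77 for LEF1, -0.64 to 0.23 for TCF7, -0.09 to 0.71 for TCF7L1 and -0.11 to 0.64 for TCF7L2 on the log2 scale. For siβ-catenin under GSK3i, where 0.0057% of all genes were called, 0 were called by either tool as well (0 at an unadjusted p under 0.05), with intervals of -1.02 to 0.31 for LEF1, -0.47 to 0.76 for TCF7, -0.45 to 0.38 for TCF7L1 and -0.81 to 0.00 for TCF7L2. The calls of TCF7L1 and TCF7L2 in BRCA2-proficient and not in BRCA2-deficient cells are therefore not shown to differ between the backgrounds. The intervals were wide enough to allow differences of the size of those falls.

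Ordered by group mean, LEF1 was highest with GSK3i and control siRNA, at 409 ± 42.9 normalised counts (SD, n = 3) in BRCA2-proficient and 360.4 ± 9.49 (n = 3) in BRCA2-deficient cells. It had 123 ± 11.5 (n = 2) with siβ-catenin and 113 ± 28.3 (n = 3) with both in BRCA2-proficient cells, and 77.7 ± 26.2 with both in BRCA2-deficient cells. The lowest means were 57.2 ± 11 (n = 2) in untreated BRCA2-proficient cells, 57.2 ± 23.1 with siβ-catenin alone and 43.3 ± 3.7 untreated in BRCA2-deficient cells. Library ranges of neighbours in this order overlapped except between the GSK3i groups and the rest.

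TCF7 followed the same order at the top, with 2057 ± 259 and 1713 ± 188 normalised counts under GSK3i in BRCA2-proficient and BRCA2-deficient cells. With both agents it had 618 ± 195 and 571 ± 91.8. The other 4 groups lay between 357 ± 73.3 (BRCA2-deficient, siβ-catenin) and 482 ± 157 (BRCA2-proficient, siβ-catenin, n = 2), and here too the one gap was below the GSK3i groups.

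TCF7L1 was highest in BRCA2-deficient cells with siβ-catenin (640.2 ± 94.4 normalised counts) and with both (556 ± 88.3). It was lowest in BRCA2-proficient cells with GSK3i (308 ± 21.6), whose highest library, at 329.6, was just under the lowest of the next group. The other neighbours in its order overlapped. TCF7L2 was highest in untreated cells (911 ± 49.2, n = 2, and 834 ± 97.6) and lowest in BRCA2-deficient cells with both agents (531 ± 47.8), with overlap between all neighbours.

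Members were compared with each other per kilobase of exon, since TCF7 has the longest exon union (10.1 kb) and TCF7L1 the shortest (4.43 kb). In untreated BRCA2-proficient cells normalised counts per kb were 135 for TCF7L2, 99.5 for TCF7L1, 37.5 for TCF7 and 10.7 for LEF1, and in BRCA2-deficient cells 124, 105, 36.0 and 8.07. TCF7L1 and TCF7L2 overlapped between libraries in BRCA2-deficient cells (94.6 to 114 against 107 to 135) but not in BRCA2-proficient ones (90.1 to 109 against 130.1 to 140.4). With GSK3i TCF7 became the most abundant member in both backgrounds, at 204 and 169.7 per kb. The other members were then at 93.1 and 103 for TCF7L2, 69.5 and 90.7 for TCF7L1, and 76.3 and 67.2 for LEF1.

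The make-up of the family thus shifted. LEF1 and TCF7 together made up 17.1% ± 1.1 (SD, n = 2) of the family's normalised counts per kb in untreated BRCA2-proficient cells and 16.1% ± 0.81 (n = 3) in BRCA2-deficient cells. With GSK3i the shares were 63.2% ± 1.92 and 55.0% ± 2.0 (n = 3 each). With GSK3i and siβ-catenin they were 29.9% ± 7.67 and 25.9% ± 4.45, the doubted BRCA2-proficient replicate 2 being at 21.1% and the other libraries of its group at 32.9% and 35.5%, and with siβ-catenin alone 28.8% ± 6.39 (n = 2, both of doubtful label) and 15.2% ± 2.74. The summed level of all 4 genes went from 283 to 443 per kb with GSK3i in BRCA2-proficient cells and from 273 to 430.3 in BRCA2-deficient cells. With canonical transcript lengths in place of the exon union, a choice made after seeing the data, the untreated shares were 26.1% and 25.4% and the GSK3i shares 74.2% and 67.1%. The size of a share therefore depended on the length used, and TCF7 was the most abundant member under GSK3i with every length tried. These are shares of RNA from whole cultures, in which fewer cells expressing a gene and less RNA per cell cannot be told apart.

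**Figure D3:**
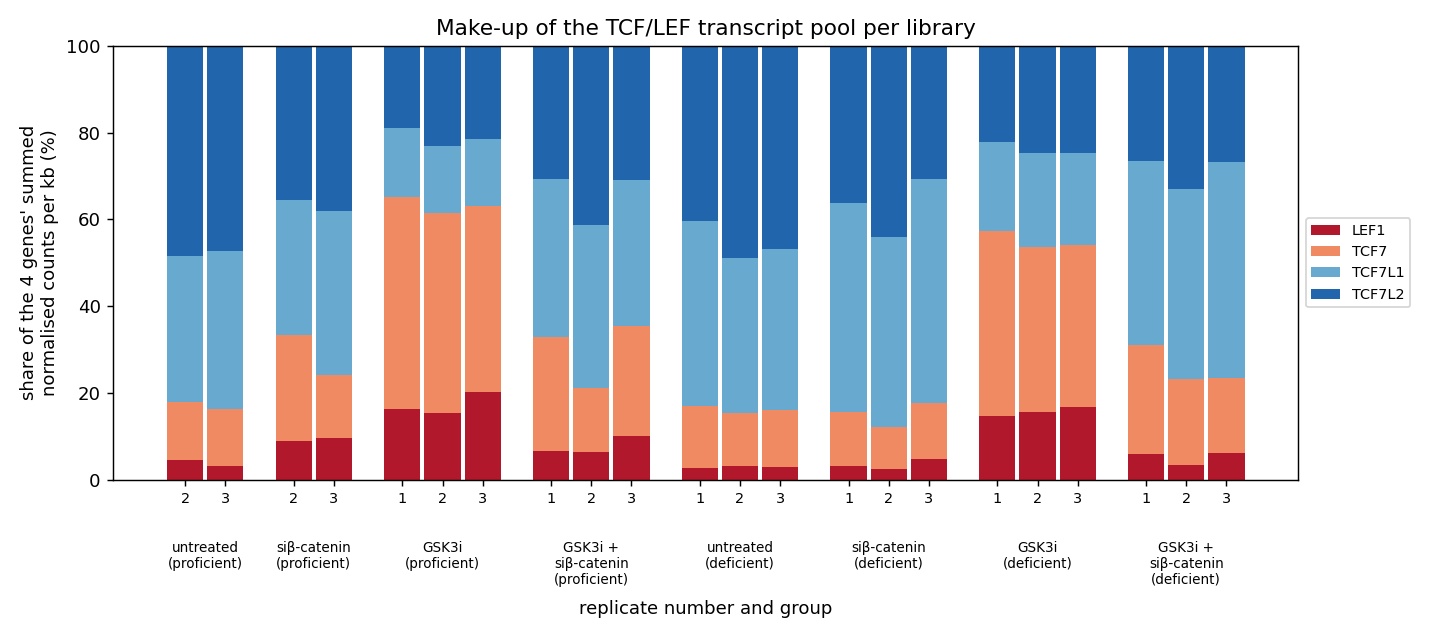
Share of each member in the family's summed normalised counts per kb of exon union, as a stacked bar for each library, ordered by group. As group means, LEF1 and TCF7 together take 63.2% (BRCA2-proficient) and 55.0% (BRCA2-deficient) with GSK3i against 17.1% and 16.1% in untreated cells.

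Across the 22 libraries log2 levels of LEF1 and TCF7 went together (Pearson r = 0.936, Spearman rho = 0.841), and both went against TCF7L1 (r = -0.65 and -0.63). TCF7L1 and TCF7L2, both lower with GSK3i in BRCA2-proficient cells, were hardly related over all libraries (r = 0.0669). The libraries share treatments and fall into clusters by them, so these values describe the design as much as the genes and carry no p. Among 11606 genes with a mean of at least 100 normalised counts, those closest to LEF1 by Pearson r were PABIR2 (0.945), RNF216 (0.938), DPH2 (0.936), NEFH (0.934) and ELAC2 (0.934). For TCF7 they were RNF128 (0.973), DNAJB1 (0.970), POLRMT (0.968), FRMD5 (0.966) and OTUB2 (0.965). TCF7L1 was closest to TEAD3 (0.954), LRRC75A, FGFR3, HCN2 and KIAA1522 (0.934), and TCF7L2 to HERC5 (0.925), OGA, MPHOSPH8, RPS6KA5 and WDR11 (0.897). By Spearman rho the closest 5 shared no gene with these lists for LEF1 and TCF7, 2 for TCF7L1 and 3 for TCF7L2.

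The proteins that TCF/LEF factors work with were followed as a list of 30 genes, comprising 12 co-activators, 13 co-repressors or inhibitors of β-catenin binding, and 5 kinases that modify the factors. With counts of 0 or 1, TLE4 was not tested, which left 29. With GSK3i 3 rose and 6 fell in BRCA2-proficient cells (median log2 fold change -0.21, against -0.00 over all genes tested), and 2 rose and 2 fell in BRCA2-deficient cells (median -0.15 against 0.02). With siβ-catenin under GSK3i 1 rose and 3 fell in BRCA2-proficient cells (median -0.03 against 0.00), and 0 rose and 3 fell in BRCA2-deficient cells (median -0.12 against -0.02). The 3 that fell include CTNNB1, the target of the siRNA. Of all genes 11.8% rose and 14.2% fell with GSK3i in BRCA2-proficient cells (11.6% and 13.8% in BRCA2-deficient cells), and 3.18% rose and 1.92% fell with siβ-catenin under GSK3i (2.95% and 2.57%), so with so few genes the partner counts are a description only. Most partners were thus not called in any of these comparisons.

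The largest change among the partners was that of HBP1, an HMG-box protein that represses WNT targets by blocking TCF/LEF binding. It fell with GSK3i by 2.17 ± 0.15 on the log2 scale in BRCA2-proficient (adjusted p = 2.13e-47), and with BRCA2 depleted it fell by 2.38 ± 0.20 (adjusted p = 6.06e-31). With β-catenin depleted, HBP1 differed by -2.34 ± 0.21 in BRCA2-deficient cells given GSK3i (adjusted p = 1.06e-25). Its difference with siβ-catenin under GSK3i was -0.09 there. Whether HBP1 affects the members was not tested. HBP1 also had 443, 915 and 1625 normalised counts in the 3 doubted libraries, in the order given by PDCD4. TBL1X, a component of β-catenin co-activator and NCoR co-repressor complexes, was lower in the same comparisons, with falls of 0.88 ± 0.16 (adjusted p = 3.9e-07) and 1.26 ± 0.18 (adjusted p = 3.42e-11) with GSK3i, and of 1.62 ± 0.17 with GSK3i after siβ-catenin in BRCA2-deficient cells.

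BCL9, which bridges β-catenin to Pygopus, and TNIK, a kinase of TCF7L2, fell with siβ-catenin under GSK3i in both backgrounds. BCL9 fell by 0.70 ± 0.15 (adjusted p = 0.00038) and 0.69 ± 0.18 (adjusted p = 0.00553), and TNIK by 0.67 ± 0.18 (adjusted p = 0.00548) and 0.59 ± 0.20 (adjusted p = 0.0377). With GSK3i BCL9 rose in BRCA2-deficient cells (0.51 ± 0.19, adjusted p = 0.0262) and was under the size criterion in BRCA2-proficient cells (0.42 ± 0.14). TNIK rose in BRCA2-proficient cells (0.52 ± 0.14, adjusted p = 0.00162) and was at 0.43 ± 0.25 in BRCA2-deficient ones (adjusted p = 0.197). When that doubted replicate 2 library (labelled GSK3i with siβ-catenin) was left out, 1 partner (TLE2) rose and 3 (CTNNB1, BCL9 and TNIK) fell in BRCA2-proficient cells.

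PYGO1, a Pygopus co-activator, rose with GSK3i in both backgrounds (0.64 ± 0.19, adjusted p = 0.00467, and 1.09 ± 0.31, adjusted p = 0.0026). It differed by -0.30 (adjusted p = 0.519) and -0.51 (adjusted p = 0.164) with siβ-catenin under GSK3i, and rose by 0.88 ± 0.22 with GSK3i after siβ-catenin in BRCA2-deficient cells (adjusted p = 0.000737). CSNK2A1, a catalytic subunit of casein kinase 2, rose in BRCA2-proficient cells (0.51 ± 0.12) and stayed under the size criterion in BRCA2-deficient cells (0.40 ± 0.14, adjusted p = 0.0141). MED12, a Mediator subunit, fell in BRCA2-proficient cells (-0.55 ± 0.16) and was at -0.34 in BRCA2-deficient cells (adjusted p = 0.266). CTNNB1 itself was not called with GSK3i (-0.27, adjusted p = 0.0598, and -0.42, adjusted p = 0.0534).

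**Figure D4:**
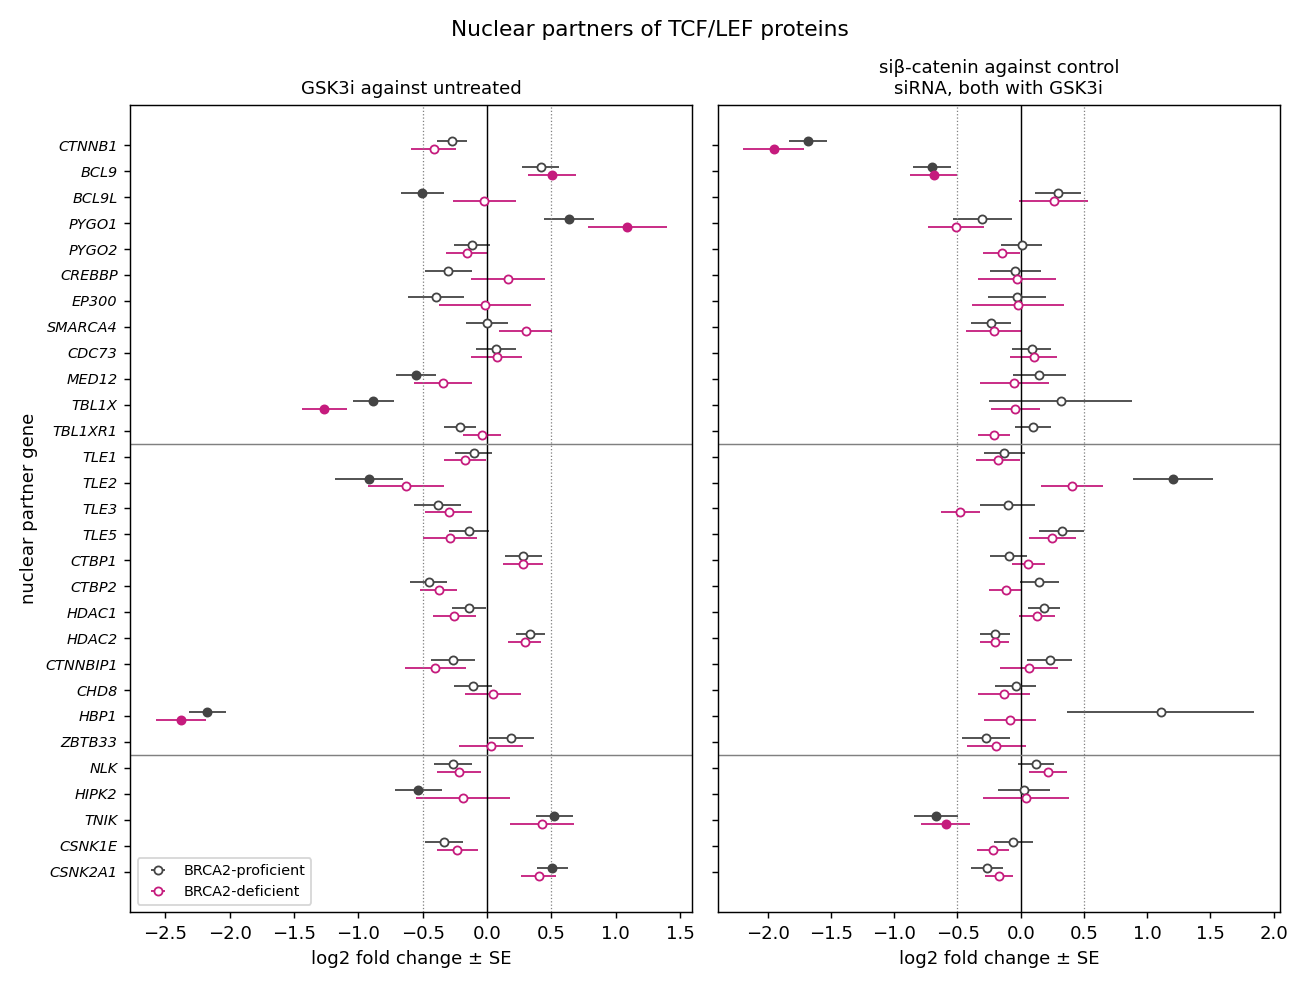
Log2 fold changes (± SE) of the 29 partner genes tested, with GSK3i and with siβ-catenin under GSK3i in both backgrounds. Points are filled where a gene was called and open where it was not, and dotted lines are at ±0.5. HBP1 (-2.17 and -2.38) and TBL1X (-0.88 and -1.26) are lower with GSK3i, and BCL9 and TNIK (-0.59 to -0.70) are lower with siβ-catenin under GSK3i.

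The names of the family are easily confused with those of the E proteins, basic helix-loop-helix factors whose genes are TCF3, TCF4 and TCF12, which are no members. TCF3 rose with GSK3i in both backgrounds (0.64 ± 0.13, adjusted p = 8.3e-06, and 0.90 ± 0.13, adjusted p = 4.37e-11). TCF7L1, for which TCF-3 is an older name, was called lower in BRCA2-proficient cells and was not called in BRCA2-deficient cells. With siβ-catenin under GSK3i TCF3 differed by -0.38 (adjusted p = 0.0436) and -0.47 (adjusted p = 0.00261), under the size criterion. Its interaction of GSK3i with siβ-catenin was called in BRCA2-deficient cells (-0.70 ± 0.14, adjusted p = 0.000479) and not in BRCA2-proficient cells (-0.46 ± 0.19, adjusted p = 0.11). TCF4 fell in BRCA2-proficient cells (-0.64 ± 0.16, adjusted p = 0.000279) and was at -0.47 ± 0.30 in BRCA2-deficient cells (adjusted p = 0.239). TCF12 was called in neither background (-0.02 and 0.13).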

How the data were processed

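Poly(A)-enriched, stranded libraries of 22 H1299 cultures were sequenced. The authors aligned reads to GRCh37 with HISAT2 2.0.4, removed duplicates with Picard 1.9.2 and counted uniquely mapping reads with featureCounts 1.5.0, and the deposited values are raw counts per Ensembl gene. Removing duplicates lowers high counts more than low ones. These versions are those of the submitters' processing notes, and the study's reporting summary names other versions of all of these tools. The Ensembl release is not given in the sources used here. Groups came from the sample labels.

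Here each comparison was fitted with DESeq2 1.42.0 (R 4.3.3) to the libraries being compared and no others, using the two-sided Wald test without shrinkage and median-of-ratios size factors. Genes with fewer than 10 counts in more than 3 libraries of a fit were left out, and for interactions genes needed 10 counts in at least 3 libraries. Errors of fold changes are standard errors. Levels are raw counts over size factors from all libraries, and log2 levels used a pseudocount of 1. Replicates differed by more than counting error (chi-square per gene 10.8 to 64.4 over 20 pairs). The study describes its RNA-seq replicates as independent experiments, which the labels do not state, and p-values measure the spread between these libraries. Alternatives were edgeR 4.0.16 (quasi-likelihood test), TMM factors, no filter, 1 model over all groups, a replicate block, and each library left out. The main fits took no account of pairing, and the replicate block was run as an alternative only. Replicate numbers were taken to pair libraries where all 3 pairs had correlated deviations above 0.1. This held for GSK3i (0.268 to 0.762), siβ-catenin alone (0.184 to 0.526), GSK3i after siβ-catenin (0.431 to 0.607) and siβ-catenin under GSK3i (0.56 to 0.868) in BRCA2-deficient cells, for the last of these also in BRCA2-proficient cells (0.2 to 0.352), and for BRCA2 status under GSK3i (0.141 to 0.689) and under both agents (0.197 to 0.371).

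The 4 members, the partner list and the marker lists were chosen with earlier results of these data known. All members are named. A partner was named when it was among the 8 with the lowest adjusted p of those called with GSK3i or with siβ-catenin under GSK3i and moving the same way in both backgrounds, and for each member the 5 genes of highest Pearson r were named. E proteins and label checks were added by name.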

Additional observations from a re-analysis of the deposited data

Results flagged for a closer look

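The response to GSK3i differed with and without siβ-catenin for LEF1 and TCF7 in both backgrounds, by the DESeq2 interaction term. On the log2 scale the difference was -2.95 for LEF1 and -2.06 for TCF7 in BRCA2-proficient cells, and in BRCA2-deficient cells -2.62 for LEF1 and -1.57 for TCF7. The BRCA2-proficient term includes the 3 siβ-catenin libraries in which PDCD4, YPEL2 and ABTB1 did not match the GSK3i label. Without both doubted replicate 2 libraries, which left doubted replicate 3 alone for siβ-catenin without GSK3i, the term was -2.91 for LEF1 and -1.45 for TCF7. With edgeR the BRCA2-proficient term was called for LEF1 (-2.92, adjusted p = 0.0193) and not for TCF7 (-2.03, adjusted p = 0.0845).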

How the results depend on the processing

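LEF1 kept its direction and its side of the thresholds in 213 of 220 alternative values over all comparisons, TCF7 in 210, TCF7L1 in 182 and TCF7L2 in 209. The rises of LEF1 and TCF7 with GSK3i and their falls with siβ-catenin under GSK3i were called under every alternative run. The small changes of TCF7L1 and TCF7L2 lay near the limits. Where the cause of a changed call is not given, the cause was not tested. Precision was limited by 2 or 3 libraries per group and, for LEF1, by counts as low as 33.

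With the replicate block, in BRCA2-proficient cells TCF7L1 differed by -0.58 (adjusted p = 0.0774) with GSK3i and by 0.52 (adjusted p = 0.0873) with siβ-catenin under GSK3i, and 0 members were called between backgrounds with siβ-catenin. The block changed no other call of a member. By pairing check the numbers did not pair libraries for GSK3i (correlations 0.0932 and 0.141 of 2 pairs), siβ-catenin alone (-0.086) or GSK3i after siβ-catenin (-0.418 and -0.275) in BRCA2-proficient cells, nor between backgrounds untreated or with siβ-catenin. The block moved the number of genes called to 189 and 527 for siβ-catenin alone, 2020 for BRCA2 status with siβ-catenin, 3 for GSK3i after siβ-catenin in BRCA2-proficient cells, 335 for the interaction of GSK3i and siβ-catenin in BRCA2-deficient cells, and 94 and 4 for the interactions with BRCA2 status.

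With edgeR, in BRCA2-proficient cells, TCF7L1 differed by 0.52 (adjusted p = 0.134) with siβ-catenin under GSK3i, and 1 member (LEF1, not TCF7) was called in the interaction. Of all genes (BRCA2-proficient, then BRCA2-deficient cells), edgeR called 183 and 267 with siβ-catenin under GSK3i (DESeq2 836 and 939), 1 and 0 with siβ-catenin alone (524 and 351), and 4 and 11 in the interaction (1305 and 88). Between backgrounds it called 326 untreated, 645 with GSK3i and 483 with both agents (1185, 1112 and 1319), and 0 in both interactions with BRCA2 status. In 1 model over all groups, siβ-catenin alone changed LEF1 by 1.11 and TCF7L2 by -0.58 in BRCA2-proficient cells, both called, and 4 members were called in the interaction. Without both doubted replicate 2 libraries, GSK3i after siβ-catenin gave 0.98 for TCF7 and -0.15 for TCF7L2 in BRCA2-proficient cells, with doubted replicate 3 the only library with siβ-catenin alone. The interaction of TCF7L1 in BRCA2-deficient cells, near 0, was 0.0069 with edgeR, 0.0076 with TMM factors and 0.011 in 1 model.

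Leaving out 1 library in turn in BRCA2-proficient cells gave -0.66 to -0.39 for TCF7L1 and -0.62 to -0.50 for TCF7L2 with GSK3i, 0.47 to 0.58 for TCF7L1 and -0.10 to 0.12 for TCF7L2 with siβ-catenin under GSK3i, -0.027 to 0.64 for TCF7 and -0.67 (called, without siβ-catenin replicate 3) to -0.50 for TCF7L2 with siβ-catenin alone, and -0.33 to 0.01 for LEF1 and -0.077 to 0.14 for TCF7L2 with GSK3i after siβ-catenin. In BRCA2-deficient cells it gave -0.14 to 0.13 for TCF7 with siβ-catenin alone and -0.14 to 0.10 for the interaction of TCF7L1. With GSK3i after siβ-catenin in these cells it gave 0.53 to 0.79 for TCF7 and -0.57 to -0.40 for TCF7L2, the latter called in 2 of 6 fits. Between backgrounds it gave -0.083 to 0.19 for TCF7L1 untreated, -0.37 to 0.056 for TCF7 with both agents, 0 to 2 members called with siβ-catenin, and -0.095 to 0.32 for TCF7 and -0.18 to 0.031 for TCF7L1 in the interaction with siβ-catenin under GSK3i. Where 1 library was left in a group, it was assumed to vary like the others.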
